A study of Mus musculus with 12 samples.

Results

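The complement and coagulation genes examined here are plasma proteins of 2 neighbouring proteolytic cascades, chosen by gene symbol from a list of 40. A probe set that carried the single symbol was found for 38 of the 40, with 54 probe sets in all, among 18193 genes measured on the Affymetrix Murine 430 2.0 array. C3 and Cpb2 were not analysed here. The 38 comprised 16 complement genes and 22 genes of clotting, its inhibitors and fibrinolysis. Whole liver and quadriceps were sampled from mice with a hypomorphic mutation of PGC1beta, the transcriptional coactivator encoded by Ppargc1b, and from control mice. Mutant liver, control liver, mutant muscle and control muscle had 3 arrays each, 12 in total, and the labels give C57BL/6 as the strain of every mouse. The labels give no age, sex, treatment or construct. Nor do they say whether each array stands for its own mouse, so a p-value here reflects spread among arrays that may be partly technical.

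In the complement system, mannose-binding lectins and their proteases, or antibodies, start a chain of cleavages in which C2 and factor B form convertases, and C5 to C9 then assemble a pore in a target membrane. In coagulation, serine proteases activate one another until thrombin, made from prothrombin, turns fibrinogen into fibrin. Antithrombin, protein C, protein S and C1 inhibitor restrain these steps, and plasmin dissolves the clot. Hepatocytes make most of these proteins and secrete them into blood, under liver-enriched transcription factors such as HNF1, HNF4 and C/EBP.

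Promoters of 4 members are given from RefSeq on GRCm38.p6, as the 250 bases before a start site listed for the gene. For C8a, C8g and Hc the annotated gene extends upstream of a start used here, so these stretches lie partly or, for Hc and the second C8g start, wholly within the gene, and other starts may exist. C8a and C8g encode 2 chains of complement component C8 and moved in opposite directions in mutant liver, Hc encodes C5, and Fgb, a fibrinogen chain, is shown as a member that did not pass the test described below. Capitals mark the HNF1 half-site GTTAAT on either strand, so that ATTAAC is the same match read on the other strand.
C8a, chr4:104876399-104876648, minus strand: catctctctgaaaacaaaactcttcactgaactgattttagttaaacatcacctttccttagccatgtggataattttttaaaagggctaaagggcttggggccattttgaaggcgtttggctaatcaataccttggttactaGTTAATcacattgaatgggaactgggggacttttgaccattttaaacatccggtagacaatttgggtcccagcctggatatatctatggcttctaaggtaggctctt
Hc, chr2:35061413-35061662, minus strand: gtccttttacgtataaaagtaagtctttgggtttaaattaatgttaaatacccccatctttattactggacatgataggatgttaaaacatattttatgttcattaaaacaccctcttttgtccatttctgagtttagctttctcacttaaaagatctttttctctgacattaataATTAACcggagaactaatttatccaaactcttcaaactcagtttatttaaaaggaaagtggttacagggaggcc
C8g, first listed start, chr2:25501720-25501969, minus strand: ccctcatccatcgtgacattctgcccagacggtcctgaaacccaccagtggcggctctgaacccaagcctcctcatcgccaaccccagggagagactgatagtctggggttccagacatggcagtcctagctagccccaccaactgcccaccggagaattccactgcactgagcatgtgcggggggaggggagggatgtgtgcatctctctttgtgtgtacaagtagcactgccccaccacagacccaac
C8g, second listed start, chr2:25500507-25500756, minus strand: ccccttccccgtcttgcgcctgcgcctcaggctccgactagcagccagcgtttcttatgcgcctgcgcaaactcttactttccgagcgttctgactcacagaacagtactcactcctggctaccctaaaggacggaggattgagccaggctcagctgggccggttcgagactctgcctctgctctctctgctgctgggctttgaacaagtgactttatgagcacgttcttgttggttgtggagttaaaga
Fgb, chr3:83049864-83050113, minus strand: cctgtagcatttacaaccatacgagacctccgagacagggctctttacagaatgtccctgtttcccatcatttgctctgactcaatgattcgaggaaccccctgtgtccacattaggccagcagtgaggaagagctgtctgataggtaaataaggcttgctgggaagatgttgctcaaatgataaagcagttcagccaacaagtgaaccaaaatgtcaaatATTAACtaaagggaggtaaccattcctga

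A promoter was listed for 29 of the 38 members. GTTAAT occurred in 9 of the 29 (31.0%), namely C4bp, C8a, C8b, F13b, Fga, Fgb, Hc, Proz and Vtn, against 7.49% of all 27025 genes with a listed promoter. The C/EBP motif TTGCNNAA occurred in 6 of 29 members (20.7%) against 10.8% of all genes, and the STAT motif TTCNNNGAA in 6 of 29 (20.7%) against 8.13%. The half-site AAGGTCA, bound by nuclear receptors such as the estrogen-related receptors that PGC-1beta coactivates, occurred in F10, F7 and Mbl2, 3 of 29 (10.3%), against 4.70% of all genes. Both strands were searched, and no match overlapped a match of another of these motifs. A match describes letters and no binding. Mutant effects of the 9 members with GTTAAT ran from -0.71 to 0.15 (median -0.15), and those of the 20 without it from -0.85 to 0.72 (median -0.24).

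Ppargc1b itself had normalised intensities of 404, 494 and 203 in mutant liver and 547, 283 and 481 in control liver, a difference that did not pass (effect -0.28, SE 0.32, limma adjusted p = 0.691). The liver groups overlapped. In muscle its effect was 0.06 (adjusted p = 0.997). The labels do not locate the mutation within the gene, so this signal does not check them. Arrays of 1 tissue correlated with r of 0.943 to 0.960 in liver and 0.961 to 0.971 in muscle. Summed deposited intensity of 8 hepatocyte markers was 75944.5 to 78762.2 in mutant liver and 70554.3 to 77823.4 in control liver, against 359.5 to 674.4 in mutant muscle and 270.5 to 661.0 in control muscle. Of these 8, Tat fell in mutant liver (effect -0.75, adjusted p = 0.0434), a call lost as deposited and with median centring. The median effect of the 8 in liver was -0.07 when normalised, with 7 lower and 1 higher, and 0.06 as deposited. Summed intensity of 9 myofibre markers was 144.5 to 224.2 over liver arrays and 92385.4 to 97219.7 over muscle arrays. The tissues thus carried the markers of their labels. RNA quality differed within mutant liver: the mean log2 ratio of 3′ to 5′ control signals was 1.90 and 1.87 in mutants 1 and 3 and 0.90 in mutant 2, against 0.50 to 0.97 in liver controls. A higher ratio means that the 5′ part of transcripts was less well represented. Muscle arrays lay between 0.33 and 0.56.

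The first question was whether the mutation changed the cascades in liver. Of the 38 members, 6 fell in mutant liver and 1 rose at an adjusted p under 0.05 (limma, Benjamini-Hochberg over all 13326 genes tested). The falls were those of Mbl2, C8a, Hc, Serping1, Serpinf2 and Plg, and the rise was that of C8g. Among all genes tested 3.35% passed, 1.03% lower and 2.33% higher. Intensities below are quantile-normalised within liver, and effects are log2 differences, mutant minus control, after an offset of 16 was added. The members' median effect was -0.19, against 0.01 for all genes tested. In bulk tissue, fewer cells of a type and less RNA per cell cannot be told apart.

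At an unadjusted p under 0.05, 17 members were lower and 3 higher in mutant liver, 20 in all, where 8.64% of all genes tested were lower and 19.6% differed in either direction. In normalised values, the 3 mutant arrays lay below all 3 controls in 20 members, above them in 3, and overlapped them in 15. Of all 13326 genes tested, 1466 lay below in this way and 1728 above, and 24.0% did not overlap in one direction or the other. As deposited, the groups stayed apart for some of the 20, among them Mbl2, C8a, Hc and Plg. Others of the 20 then overlapped, among them Serping1, Serpinf2, F5 and Klkb1. The calls rest on the quantile normalisation: with the values as deposited 1 member passed, the rise of C8g (adjusted p = 0.0143, where 2.09% of all genes rose), and with median centring 0 passed (13 at an unadjusted p under 0.05), where 2.50% of all genes passed. Over all genes the split of calls was 310 higher and 137 lower, against 279 and 18 as deposited and 300 and 33 with median centring.

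**Figure D1:**
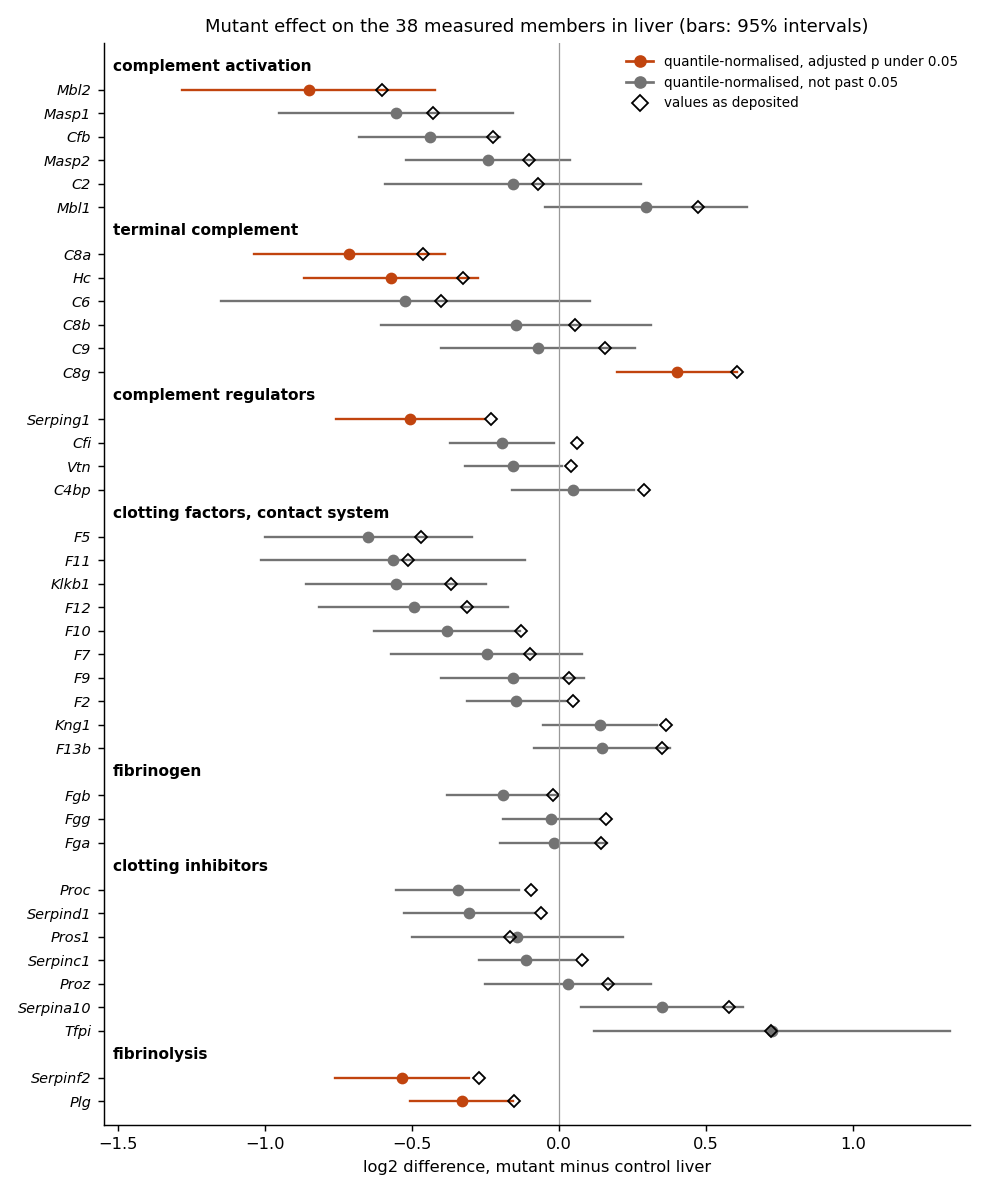
Log2 difference between mutant and control liver for the 38 measured members, by role, with 95% intervals of the limma fit on quantile-normalised values (circles, filled in red past an adjusted p of 0.05) and the same effect from the values as deposited (diamonds). Effects were below 0 for 30 members when normalised and for 21 as deposited, and the diamonds lie to the right of the circles for all members but Pros1 and Tfpi.

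Complement is started in the lectin pathway by Mbl1 and Mbl2, the mannose-binding lectins, with their proteases Masp1 and Masp2. Mbl2 read 3863, 3075 and 2063 in mutants 1, 2 and 3, against 5510.2, 5709 and 4623 in controls 1, 2 and 3. All mutants lay below all controls, and mutant 3 was the lowest. Mbl2 fell by 0.85 on the log2 scale (SE 0.19, 95% interval -1.28 to -0.42, adjusted p = 0.0425 by limma), a 1.81-fold lower level. Mbl1 stood the other way, at 2502 ± 248 in mutants and 2060 ± 445 in controls (SD, n = 3 each; effect 0.30, limma adjusted p = 0.332), and its groups overlapped.

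Masp1 read 825, 1311 and 809 in mutants 1, 2 and 3, against 1379, 1417 and 1442 in controls. Mutant 2 was close to the controls, and the other mutants, those with high 3′ to 5′ ratios, were well below it. The Masp1 effect was -0.55 (adjusted p = 0.123), and Masp2 stood at -0.24 (adjusted p = 0.326). Cfb, factor B of the alternative pathway, read 2413, 2607 and 2664 in mutants against 3455, 3839.8 and 3178 in controls. The groups did not overlap, but the effect of -0.44 (SE 0.11, adjusted p = 0.0548) did not pass. C2, the classical pathway counterpart of factor B, read 794, 646 and 803 in mutants against 1081, 858 and 619 in controls, with overlapping groups and an effect of -0.16 (adjusted p = 0.724).

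The terminal components held the largest contrast within one complex. C8a, the alpha chain of C8, read 2373, 3497 and 3486 in mutants 1, 2 and 3, against 4978, 5335 and 4839.8 in controls. It fell by 0.71 (SE 0.15, 95% interval -1.04 to -0.39, adjusted p = 0.0310), a 1.64-fold lower level, with mutant 1 the lowest. C8g, the gamma chain, read 9189, 8219 and 9189 in mutants, against 6814, 7225 and 6099 in controls. Every mutant lay above every control, and C8g rose by 0.40 (SE 0.09, 95% interval 0.20 to 0.61, adjusted p = 0.0447), a 1.32-fold higher level. C8b, the beta chain, stood at -0.15 (95% interval -0.61 to 0.31, adjusted p = 0.760) with overlapping groups. The promoters of C8a and C8b carried GTTAAT, and neither listed start of C8g did. The promoter of Mbl2, the member that fell most, did not carry it either. A link between the site and the effects was not tested.

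Hc, which encodes C5, read 2598, 3079 and 3199 in mutants against 4588, 5015 and 3676 in controls. It fell by 0.57 (SE 0.13, 95% interval -0.87 to -0.28, adjusted p = 0.0467), and control 3 was the closest to the mutants. C6 varied widely, at 646, 1096 and 1442 in mutants and 1657, 1817 and 1022 in controls (effect -0.52, SE 0.28, adjusted p = 0.349). C9, the pore-forming component, stood at -0.07 (adjusted p = 0.847). The groups overlapped for both C6 and C9.

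Among the regulators of complement, Serping1, which encodes C1 inhibitor and also blocks the contact proteases of clotting, read 3705, 4814 and 3987 in mutants 1, 2 and 3, against 5546, 5861 and 6309 in controls. It fell by 0.51 (SE 0.11, 95% interval -0.76 to -0.26, adjusted p = 0.0393), and the decrease was smallest in mutant 2. Cfi, the protease factor I, and Vtn, vitronectin, stood at -0.19 and -0.16 (adjusted p = 0.209 and 0.286). Their mutants lay below their controls as normalised, and their effects turned to 0.06 and 0.04 with the values as deposited. C4bp, the C4b-binding protein, stood at 0.05 (adjusted p = 0.839).

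**Figure D2:**
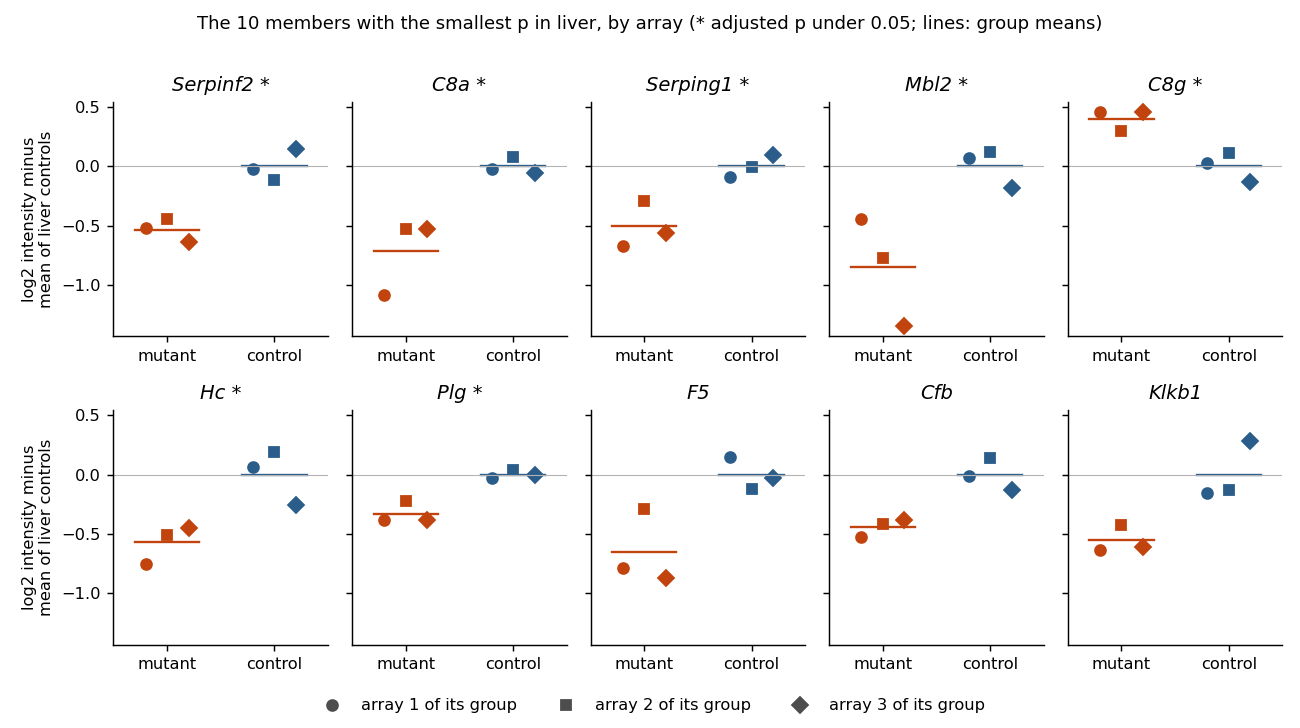
Log2 normalised intensity minus the mean of the 3 liver controls for the 10 members with the smallest p in liver, with each array as a point and group means as lines. C8g is the single panel with its mutants above the controls, and in Serping1, Plg and F5 mutant 2 is the mutant nearest to the controls.

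None of the 10 clotting and contact genes passed, although 5 had an unadjusted p under 0.05, all lower in mutant liver, where 8.64% of all genes tested were lower at that p. F5, the cofactor factor V, read 1468, 2072 and 1379 in mutants 1, 2 and 3, against 2819, 2339 and 2485 in controls (effect -0.65, SE 0.16, adjusted p = 0.0546). Klkb1, plasma prekallikrein of the contact system, read 1807, 2096 and 1839 in mutants against 2529, 2572 and 3428 in controls (effect -0.56, SE 0.14, adjusted p = 0.0569). In both genes the mutants lay below the controls, and mutant 2 was the highest of them. F11, the contact factor XI, read 412, 707 and 448 in mutants against 828, 664 and 794 in controls (effect -0.57, adjusted p = 0.158), so mutant 2 lay within the range of the controls.

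F12, the contact factor XII, was lowest in mutant 2, at 1920.2, 1328 and 1676 in mutants 1, 2 and 3 against 2149, 2494 and 2252 in controls (effect -0.49, adjusted p = 0.0902). The vitamin K-dependent proteases differed less. F10, factor X, stood at -0.38 (adjusted p = 0.0886), F7 at -0.25 (adjusted p = 0.401), F9 at -0.16 (adjusted p = 0.483) and F2, prothrombin, at -0.15 (adjusted p = 0.316). Kng1, kininogen, and F13b, the carrier subunit of factor XIII, stood at 0.14 and 0.15 (adjusted p = 0.427 and 0.496).

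Of the fibrinogen chains 0 passed limma's test, and 1, Fgb, had an unadjusted p under 0.05. Fga averaged 11240.8 ± 527 in mutants and 11405.5 ± 905 in controls, and Fgg 10062 ± 284 and 10260.6 ± 393 in mutants and controls. Their effects were -0.02 (95% interval -0.20 to 0.16) and -0.03 (95% interval -0.19 to 0.13). Fgb read 9592, 9977 and 10684 in mutants against 10904, 11033 and 12679.9 in controls. All its mutants lay below all its controls, whereas the groups of Fga and Fgg overlapped. Fgb stood at -0.19 (95% interval -0.38 to -0.00, adjusted p = 0.249). The median over the 3 chains was -0.03 and turned to 0.14 with the values as deposited.

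The inhibitors of clotting did not pass either. Serpinc1, antithrombin, stood at -0.11 (95% interval -0.27 to 0.05, adjusted p = 0.450) and Serpind1, heparin cofactor II, at -0.31 (adjusted p = 0.124). Proc, protein C, read 3349.8, 3589.6 and 3616 in mutants against 4247, 4754 and 4432 in controls, with no overlap and an effect of -0.35 (SE 0.09, adjusted p = 0.0749). Pros1, protein S, stood at -0.14 (adjusted p = 0.690).

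Serpina10 encodes the protein Z-dependent protease inhibitor and read 3834, 3222 and 3679.9 in mutants against 2445, 3213 and 2787 in controls. Its lowest mutant lay just above its highest control, and the effect was 0.35 (SE 0.12, adjusted p = 0.156). Proz, its cofactor protein Z, stood at 0.03 (adjusted p = 0.934). Tfpi, the tissue factor pathway inhibitor, was dim, at 87.2, 58.3 and 67.2 in mutants and 56.9, 35.0 and 21.9 in controls (effect 0.72, SE 0.27, adjusted p = 0.178). The median of the 7 inhibitors was -0.11 and turned to 0.08 as deposited.

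Both fibrinolysis genes among the 38 measured members fell. Serpinf2, alpha-2-antiplasmin, the main inhibitor of plasmin, read 3906, 4112 and 3593 in mutants, against 5501, 5157 and 6199 in controls, and fell by 0.53 (SE 0.10, 95% interval -0.76 to -0.31, adjusted p = 0.0267). Plg, plasminogen, the precursor of plasmin, read 8099.8, 9048 and 8083 in mutants against 10346.2, 10873 and 10518 in controls and fell by 0.33 (SE 0.08, 95% interval -0.51 to -0.16, adjusted p = 0.0496). Thus both the protease precursor and its inhibitor were lower, by 1.26-fold and 1.45-fold, with no overlap between groups in normalised values. As deposited, the Plg groups stayed apart and the Serpinf2 groups overlapped. Serpinf2 as deposited read 4287.7 in control 2, below mutants 1 and 2 at 4429.7 and 4329.9.

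Complement and clotting genes were then set side by side. Of 16 complement genes, 4 fell and 1 rose by limma's adjusted p, where 1.03% of all genes tested fell and 2.33% rose. At an unadjusted p under 0.05, 7 of the 16 were lower and 1 higher, and their median effect was -0.22. Of 22 clotting, inhibitor and fibrinolysis genes, 2 fell and 0 rose by limma's adjusted p. At an unadjusted p under 0.05 there were 12 of the 22, 10 lower and 2 higher, and their median was -0.17. Medians of the complement genes in mutants 1, 2 and 3 were -0.39, -0.23 and -0.15, against -0.13 to 0.09 in controls. For clotting they were -0.24, -0.19 and -0.12, against -0.04 to 0.04. In these normalised values the array medians of the 2 genotypes did not overlap in either family. For complement, mutant 3 at -0.153 lay just below control 3 at -0.132. Array medians were not taken from the deposited values, and the difference between the families was not tested. At an unadjusted p, 19.6% of all genes tested passed. With the values as deposited the medians were -0.09 and -0.04, and in both families 0 genes fell, as with median centring (11 and 13 members with an unadjusted p under 0.05 in the 2 settings).

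**Figure D3:**
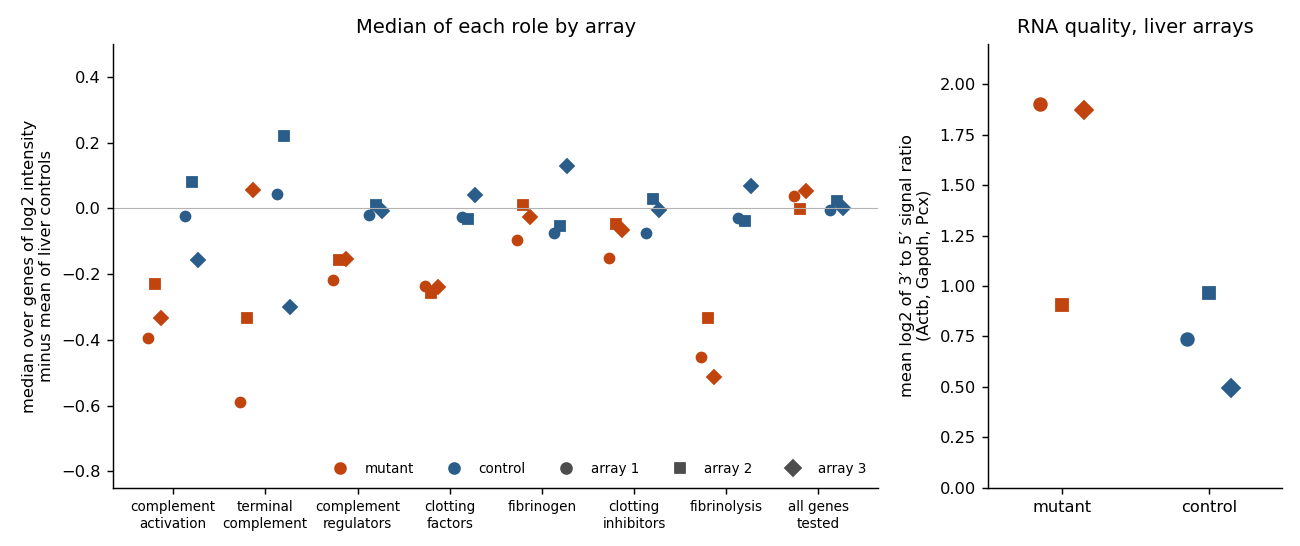
Left, the median over the genes of each role of log2 intensity minus the mean of liver controls, for each liver array. Right, the mean log2 3′ to 5′ signal ratio of Actb, Gapdh and Pcx in the same arrays: mutants 1 and 3 stand at 1.90 and 1.87 while mutant 2 stands at 0.90, among or near the controls.

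The mutants did not move by equal amounts. Mutant 2, the array with the ratio nearest to the controls, was the mutant closest to the control mean in 21 of 38 members (55.3%), where this held for 45.7% of all genes tested. Among the 7 called members it was so in 5. With mutant 2 as the sole mutant, assumed to vary like the controls, Mbl2 stood at -0.75, C8a at -0.51, Hc at -0.49, Serpinf2 at -0.43, Serping1 at -0.29, Plg at -0.23 and C8g at 0.32, each with the sign of the full comparison, and limma called 0 members (7 at an unadjusted p under 0.05). By contrast Masp1 then stood at -0.11, F11 at -0.10 and F5 at -0.28. Fitted together with the ratio, Masp1 stood at -0.07, F11 at 0.00 and F5 at -0.24, and limma called 0 members (8 unadjusted). Of the called members, Serping1 then stood at -0.25, C8g at 0.22, Plg at -0.23, Serpinf2 at -0.37 and C8a at -0.54, each closer to 0 than in the full comparison, while Hc stood at -0.62 and Mbl2 at -0.86.

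Probe sets of the same gene disagreed in several members, of which 9 had more than 1 probe set. The 2 probe sets of Proz differed most. The one with the higher mean over 12 arrays, which stands for the gene, read 1069, 1021 and 1147 in mutants and 976, 1032 and 1166 in controls. The other read 296, 1013 and 435 in mutants 1, 2 and 3 against 1191, 1081 and 1301 in controls, so mutants 1 and 3 alone were far below (effect -1.20, limma adjusted p = 0.10 over all probe sets). The sources do not place these probe sets on the transcript, and the part of RNA quality in this split was not tested.

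Kng1 had effects of 0.14 and -0.29 from its 2 probe sets, and Masp2 of -0.24 and 0.33, so their direction depended on the probe set. So did that of Masp1, whose 4 tested probe sets gave -0.55, 0.15, -0.15 and -0.26. The 3 probe sets of C2 gave -0.16, -0.22 and -0.51, and those of Vtn -0.16 and -0.38. Tfpi had 0.72 from the probe set that stands for it and 0.21, 0.09 and 0.15 from the others. F10 likewise had -0.38, and -0.12 and -0.17 from its others. In these other probe sets of Tfpi and F10 the groups overlapped. F5 was alike in both, at -0.65 and -0.67, with mutant 2 the highest mutant each time. The 7 called members have 1 probe set each, so this comparison was not open to them.

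**Figure D4:**
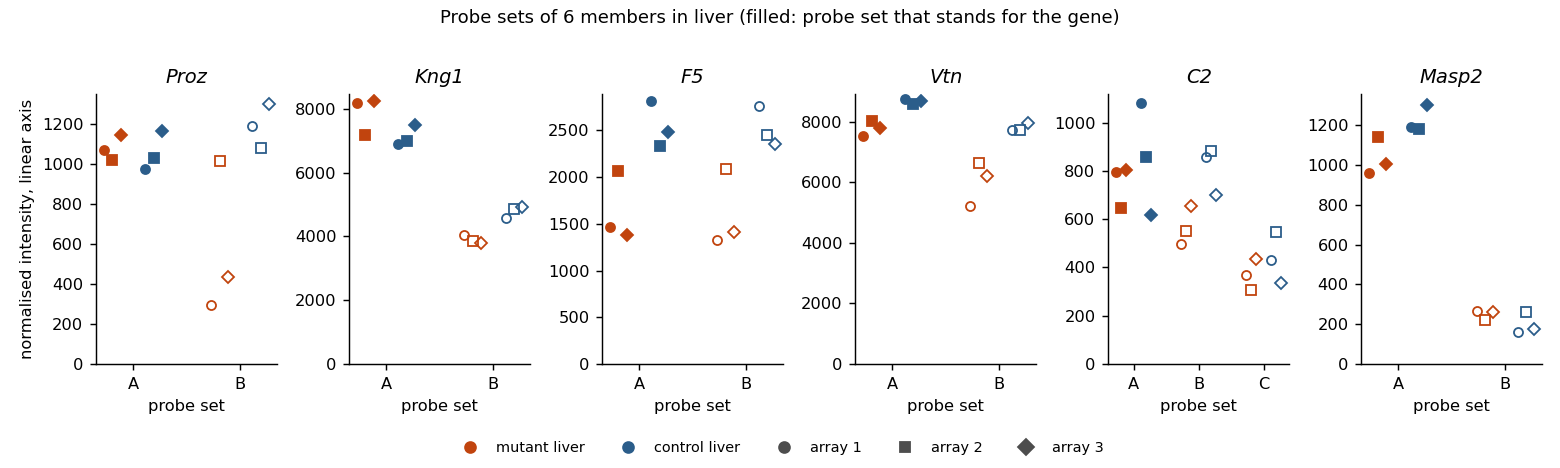
Normalised intensity of every probe set of 6 members in the liver arrays, on linear axes that start at 0, with mutants to the left of controls. The second probe set of Proz reads 296 and 435 in mutants 1 and 3 and 1013 or more in mutant 2 and the controls, while its first reads 976 to 1166 throughout.

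Several members are direct neighbours in the order of protein-coding genes on GRCm38.p6. C8b and C8a are adjacent on chromosome 4, with effects of -0.15 and -0.71. Cfb and C2 are adjacent on chromosome 17 (-0.44 and -0.16), and F11 and Klkb1 on chromosome 8 (-0.57 and -0.56). F7, F10 and Proz follow one another on chromosome 8 (-0.25, -0.38 and 0.03), as Fgg, Fga and Fgb do on chromosome 3 (-0.03, -0.02 and -0.19).

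Other genes of the 2 cascades, and genes that regulate them, were read from lists. Beside their counts stand the 2.33% of all genes tested that rose and the 1.03% that fell. Of 19 further complement genes tested in liver, 2 rose and 1 fell, with a median of 0.32. Vsig4, a complement receptor of Kupffer cells, rose by 0.80 (SE 0.18, adjusted p = 0.0453), and Colec10, a collectin of the lectin pathway, by 0.72 (SE 0.17, adjusted p = 0.0467). Clu, clusterin, an inhibitor of the membrane attack complex, fell by 0.38 (SE 0.08, adjusted p = 0.0388).

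Of 15 further clotting genes tested, Hrg alone passed. It encodes histidine-rich glycoprotein and read 6099 ± 98.7 in mutants and 7950 ± 145 in controls, a fall of 0.38 (SE 0.08, adjusted p = 0.0303). Among 18 regulators tested, Cebpa, the transcription factor C/EBP alpha, fell by 0.48 (SE 0.10, adjusted p = 0.0374) and Il6ra, the interleukin-6 receptor, by 0.81 (SE 0.16, adjusted p = 0.0302). Hnf4a, which encodes HNF4 alpha, stood at -0.41 (adjusted p = 0.0847). With the values as deposited 0 genes of these 3 lists passed. With median centring, of the genes named here, Il6ra (adjusted p = 0.0279) and Vsig4 (adjusted p = 0.0398) passed, and Cebpa, Hrg, Clu and Colec10 did not.

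Markers of another cell type moved with genotype beside these results. Of 14 Kupffer cell and macrophage markers, 3 rose (Tyrobp, Lyz2 and Vsig4) and 0 fell, where 2.33% of all genes tested rose. Higher means in mutants were found for 13 of the 14, and for 6822 of all 13326 genes tested. As deposited 2 of the 14 rose, and with median centring 3. Fitted together with the 3′ to 5′ ratio 0 rose, as did 0 of all genes tested. The markers' median effect was 0.48, against 0.20 in that fit and 0.40 with mutant 2 as the sole mutant. Their summed deposited intensity was 4266.8 to 5008.7 in mutant liver and 2958.4 to 3353.6 in control liver. Of 10 endothelial markers 0 passed (0 unadjusted), and their sums overlapped, at 2647.1 to 3052.4 in mutants and 2167.7 to 3425.7 in controls. The part of macrophage content in the members' results was not tested.

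In quadriceps muscle the mutation left no called change among the members. Of the 38, 16 lay above the filter on dim genes, and none passed limma's test, where 0.0152% of 13131 genes did. At an unadjusted p under 0.05 there was 1, where 4.26% of all genes were. The gene with the smallest p was Cfb, at 28.1, 26.0 and 30.5 in mutants and 18.0, 10.6 and 16.5 in controls. Its mutants lay above its controls, and the effect was 0.52 (SE 0.21, adjusted p = 0.995). The groups did not overlap in 3 of the 16, namely Cfb, C9 and Pros1, all with mutants above. Of all genes tested, 4.33% lay above in this way and 9.54% did not overlap. Serping1 read 672, 586 and 696 in mutant muscle and 701, 438 and 644 in control muscle (effect 0.15, adjusted p = 0.995).

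The effect of the mutation was compared between tissues for the 16 members above the filter in both. Cfb differed, by -0.96 (liver minus muscle, SE 0.19, 95% interval -1.36 to -0.56, adjusted p = 0.0282 by limma over 11841 genes, of which 1.42% passed and 0.262% were lower). Its effect was -0.44 in liver and 0.52 in muscle, neither of which passed alone. No other member passed. C8g stood at 0.72 (adjusted p = 0.116), Serpinf2 at -1.02 (adjusted p = 0.102) and Serping1 at -0.66 (adjusted p = 0.147).

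Control liver was compared with control muscle to show where the members are expressed. In control liver 37 of 38 members were higher at an adjusted p under 0.05, and the exception was Tfpi, where 26.3% of 14672 genes tested were higher, 28.4% lower and 54.7% either. The median log2 difference was 6.36. Deposited intensities of Plg were 9991 ± 443 in control liver and 1.60 ± 0.173 in control muscle (SD, n = 3 each), and those of Fgb were 10927.5 ± 1380.3 and 1.20 ± 0.557 in liver and muscle. Signals this low lie far under the offset of 16, so the log2 differences understate the contrast.

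Signals in muscle were seen for a handful of members. Serping1 averaged 5332 ± 847 in control liver and 590.4 ± 165 in control muscle, a log2 difference of 2.43 (SE 0.16). C2 averaged 808 ± 133 and 86.8 ± 6.36 in liver and muscle (2.39, SE 0.19), and Pros1 305 ± 23.6 and 62.4 ± 7.81 (1.49, SE 0.16). Vtn read 8136 ± 558 in liver and 155 ± 15.2 in muscle. Tfpi, which endothelial cells also make, averaged 37.3 in liver and 25.2 in muscle, a difference of -0.06 on the normalised scale (95% interval -0.74 to 0.63, adjusted p = 0.888).

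**Figure D5:**
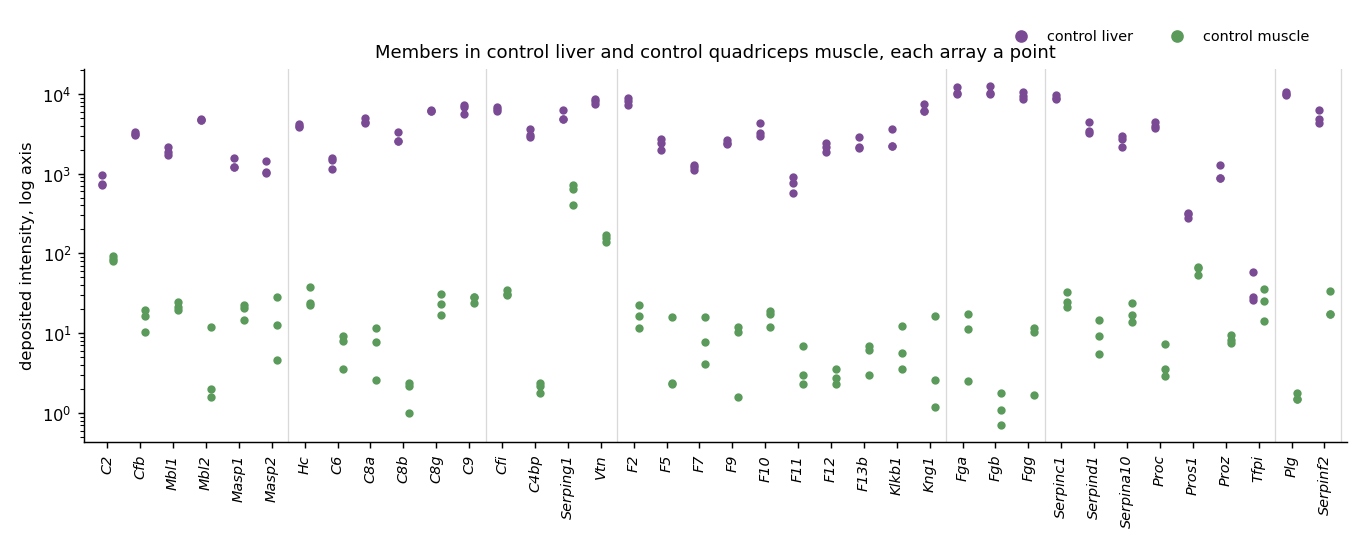
Deposited intensity of the 38 members in the control arrays on a log axis, with liver to the left of muscle for each gene. Liver lies above muscle for every gene but Tfpi, whose tissues overlap, and Serping1, Vtn, C2 and Pros1 have the brightest muscle signals, with means of 590.4, 155, 86.8 and 62.4.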

How the data were processed

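Affymetrix Murine 430 2.0 arrays of 12 samples were used as 1 table of linear intensity per probe set, as deposited by the authors. The method of probe summary and array scaling was not stated in the labels used; the series' design text names d-Chip for clustering. Precision rests on 3 arrays a group.

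The table held 45101 probe sets, of which 64 controls were dropped. A single gene symbol was listed for 34945, several for 932 and none for 9160, and 34741 symbols were checked by Entrez identifier against GRCm38.p6 gene tables. The probe set with the highest mean stood for a gene. Deposited array medians in liver ran from 27.2 to 40.1, a range of 0.38 as log2(median + 16). Values were therefore quantile-normalised within tissue and taken as log2(value + 16). Control tissues were normalised together. Genes brighter than the 40th percentile of the tissue's probe sets were tested with limma 3.58.1 in R 4.3.3 (variance trend), 3 arrays against 3, with p adjusted by Benjamini-Hochberg across every gene in the fit and called under 0.05. The difference between tissues was an interaction term over 12 arrays. Fits were tested on simulated data. Figures used Python 3.11.15 and matplotlib 3.10.9.

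Members and lists were chosen with earlier results of these data known. All 38 members are named. Of other lists, genes past the threshold are named, at most 4 a list. Hnf4a, and the members given with every array though not called, were picked after their values were seen. Replicate numbers were treated as names only. Deviations of same-numbered liver arrays correlated from -0.12 to -0.01, and those of muscle from 0.04 to 0.20. Arrays of unlike number were not set beside them, so these values cannot settle whether the numbers pair the samples.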

Additional observations from a re-analysis of the deposited data

Results flagged for a closer look

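The effect of the mutation on Cfb, factor B of the alternative complement pathway, differed between the tissues, with a liver minus muscle difference of -0.96 on the log2 scale (SE 0.19, adjusted p = 0.0282 by limma's interaction term). All 3 mutants lay below the controls in liver and all 3 above them in muscle, where the signal was dim at 10.6 to 30.5. Over 22 alternatives the difference ran from -1.34 to -0.66, with adjusted p from 0.0245 to 0.227, and passed in 10.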

How the results depend on the processing

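The 7 called members kept their sign under all 18 alternatives run in liver. All 7 kept the call with an offset of 64 (479 calls over all genes). They also kept it with the filter at the 60th percentile, where 10 members and 587 of all genes passed. Under most other alternatives few or none kept it. Past the threshold were 3 members with an offset of 1, 1 with the values as deposited, 1 with the mean of probe sets, 2 with all 12 arrays in one fit, and 0 with no filter, with median centring, with no variance trend, with the 3′/5′ covariate or without liver mutants 1 and 3 together, where the lone mutant is assumed to vary like the controls. With 1 array left out the count ran from 0 to 9. It was 9 without mutant 2 and 0 without any other single liver array, with 14 to 19 members at an unadjusted p under 0.05. Over all genes the count of 447 became 0 without control 2 or without mutant 1, 43 without mutant 3, 27 without control 1, 26 without control 3 and 739 without mutant 2. It was 994 with all 12 arrays, 172 with the mean of probe sets, 219 with no filter, 297 as deposited, 0 with no variance trend (2332 unadjusted) and 2 with the covariate. With the sample number as a replicate block 0 members passed (19 unadjusted), and 11 of all genes did. Whether the numbers pair the samples was not settled. The causes of these losses were not tested. The complement median was -0.0871 as deposited and -0.0920 with median centring, and ran from -0.348 to -0.191 with 1 array left out, lowest without control 3. The clotting median was -0.0403 and -0.0452, and ran from -0.240 to -0.162. In muscle 0 members passed under every alternative run. For the difference between tissues 2 members passed with an offset of 64, and 0 as deposited, with median centring, no variance trend or the covariate. With the filter at the 60th percentile 0 passed, but only 7 members were tested there, against 16 in the main fit. The count ran from 0 to 1 with 1 array left out, and was 0 without liver mutant 1, liver control 1 or 2, muscle mutant 2 or 3, or muscle control 2. It was 1 without muscle mutant 1, but of a member other than Cfb. Over all genes the 168 calls (137 higher, 31 lower) became 57 as deposited (55 and 2), 58 with median centring (56 and 2), 58 with no filter, 85 with the mean of probe sets, 102 with the replicate block, 0 with no variance trend (1717 unadjusted), 1 with the covariate, 10 without liver mutants 1 and 3, and 12 to 390 with 1 array left out. The control tissue comparison gave 37 throughout; as deposited the median of all genes lay 0.49 higher in liver, with 6323 genes higher and 2157 lower against 3862 and 4165. The 31 members that did not pass changed sign in 39 of 558 liver values.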

Other observations

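Other secreted liver proteins were read in the same way. Among the acute-phase and secreted genes that passed were 4 heavy chains of the inter-alpha-trypsin inhibitor family, which were on 2 separate lists and are grouped here after their values were seen. By limma, mutant liver was lower in Itih1 by 0.54 (SE 0.11, adjusted p = 0.0276), Itih2 by 0.66 (SE 0.14, adjusted p = 0.0345), Itih3 by 0.48 (SE 0.10, adjusted p = 0.0344) and Itih4 by 0.53 (SE 0.09, adjusted p = 0.0180). Itih4 read 5945 ± 457 in mutants and 8582 ± 335 in controls (SD, n = 3 each). Cp, ceruloplasmin, fell by 0.46 (SE 0.09), and with Itih3 and Itih4 it made 3 of 19 acute-phase genes that fell, beside 0 that rose. Of 16 other secreted hepatocyte genes 4 fell and 0 rose, where 1.03% of all genes tested fell and 2.33% rose: Itih1, Itih2, Fetub, fetuin-B, by 0.53, and Serpinf1, which encodes pigment epithelium-derived factor, by 0.40. The median effect was -0.15 in each of these lists, and it turned to 0.01 for the acute-phase genes and was -0.00 for the secreted genes with the values as deposited. With those values, and with median centring, 0 genes of either list fell, and as deposited 1 acute-phase gene rose. Adjusted p of the 4 Itih genes ran from 0.225 to 0.499 as deposited and from 0.131 to 0.376 with median centring.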
